A study of Mus musculus with 6 samples.

Results

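The 8 genes described here are oligoadenylate synthetase genes of the mouse, namely Oas1a, Oas1b, Oas1c, Oas1g, Oas2, Oas3, Oasl1 and Oasl2. They were chosen by gene symbol from the 54532 genes of the expression table, by a rule that used no measured value. Earlier results of these data were known when they were chosen. The libraries came from mouse aortic smooth muscle cells (MASMCs), cultured from the abdominal aorta. Of the 6 libraries, 3 were labelled Ad-Con (an adenoviral vector with a control plasmid, genotype label WT) and 3 Ad-PDK4 (an adenoviral vector with a plasmid for overexpression of pyruvate dehydrogenase kinase 4, PDK4, genotype label PDK4 overexpression). The study's methods name mice of several genotypes as sources of such cells, without saying which were used for these libraries. Per its results both groups were given angiotensin II (Ang II), which the labels do not mention. The mice were 10 weeks old, and Ang II was used at 1 µM for 48 h. All cells were passaged cultures, and cells without vector or without Ang II were not analysed here. The comparison asked how the expression of these genes differed between the PDK4 vector and the control vector.

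Oligoadenylate synthetases are sensors of double-stranded RNA. When bound to it, the active enzymes join ATP into short chains with 2′-5′ linkages (2-5A), a signal that serves the defence of the cell against viruses. The genes are known as interferon-stimulated genes, whose transcription is driven by interferon signalling at interferon-stimulated response elements (ISREs). In the mouse the Oas1 gene has been copied many times, and not all copies make an active enzyme.

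All 8 genes lie on chromosome 5 (GRCm38) in a pair of groups. Oasl2 (114896936 to 114912234) and Oasl1 (114923240 to 114937915) lie on the plus strand with 11.0 kb between them. The other 6 lie 5792.4 kb further along, in a cluster of 191.3 kb that holds 10 Oas genes. From left to right, its members are Oas2 (120730333 to 120749853), Oas3 (120753098 to 120777661), Oas1c (120800194 to 120812514), Oas1b (120812635 to 120824163), Oas1g (120876142 to 120887613) and Oas1a (120896256 to 120907521). All but Oas1b are on the minus strand, and Oas1b and Oas1c start back to back with 120 bases between them. Oas1b is annotated as a polymorphic pseudogene, and all other members as protein coding. In the longest coding sequence of each gene in GENCODE there were 362 to 376 codons in the 4 Oas1 genes, 751 in Oas2, 1138 in Oas3, 511 in Oasl1 and 508 in Oasl2. These codons were counted from the annotation and stops inside them were not looked for, so the count for Oas1b does not show a full-length protein. Oas2 and Oas3 carry repeats of the synthetase unit, and the Oasl proteins carry ubiquitin-like domains after it.

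The stretches just before the start sites of the Oas1 genes and Oas3 are shown because they hold the letters of the ISRE. They are 120 bases each, written 5′ to 3′ from GRCm38.p6. The first 3 are on the minus strand, read towards the gene, at chr5:120907526-120907645 for Oas1a, chr5:120887614-120887733 for Oas1g and chr5:120777660-120777779 for Oas3, whose last 2 bases lie inside the gene as the table places it. The fourth, at chr5:120812515-120812634, is on the plus strand and is the whole interval from Oas1c to Oas1b, read towards Oas1b. Capitals mark the letters GAAANNGAAA or, where 2 such matches overlap, the run they make.
Oas1a: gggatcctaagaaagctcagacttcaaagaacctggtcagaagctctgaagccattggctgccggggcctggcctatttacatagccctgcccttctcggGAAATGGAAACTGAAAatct
Oas1g: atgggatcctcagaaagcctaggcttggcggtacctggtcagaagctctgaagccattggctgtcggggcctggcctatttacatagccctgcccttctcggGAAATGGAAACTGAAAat
Oas3: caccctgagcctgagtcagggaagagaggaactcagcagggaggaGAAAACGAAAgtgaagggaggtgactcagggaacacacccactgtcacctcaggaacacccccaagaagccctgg
Oas1c to Oas1b: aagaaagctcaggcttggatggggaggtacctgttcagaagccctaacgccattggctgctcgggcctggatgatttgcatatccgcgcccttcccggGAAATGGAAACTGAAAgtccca

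The same 16 letters, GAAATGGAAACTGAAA, stood before Oas1a, before Oas1g and in the interval shared by Oas1c and Oas1b. Counted from the RefSeq start they ran from -20 to -5 in Oas1a and from -18 to -3 in Oas1g. In the shared interval they ran from -22 to -7 before the start of Oas1b as the table gives it, and the same bases, on the opposite strand, lay at -114 to -99 from Oas1c. Over the 120 bases, Oas1a and Oas1g had 90.0% identical positions, counting from the best alignment. Oas3 had a single match further from its start, GAAAACGAAA from -75 to -66.

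RefSeq promoter windows (250 bases before to 50 after a start, GRCm38.p6) were found for 6 of the 8 members, and not for Oas2 or Oas1b. GAAANNGAAA on either strand was in the windows of Oas1a, Oas1g, Oas1c and Oas3, and in 3.44% of all 32851 windows (1131). Neither Oasl1 nor Oasl2 held it in that window. The letters TTCNNNGAA, which stand for the gamma-activated sequence, known from genes that answer interferon gamma, and read the same on both strands, were in the window of Oas1a and in 8.3% of all windows (2726). The 16-letter run occurred in 7 windows of 5 genes, which were Oas1a, Oas1g, Oas1c, Apol9a and Apol9b. A match is a description of letters and not of binding.

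The deposited values were FPKM, a read count per gene that is divided by gene length and library size, and multiplying back gave whole reads for 100% of the values, within 0.01 reads. Totals ran from 17588942 to 21861872 reads on genes per library. Pdk4 itself checks the labels. It had 9.50, 10.4 and 10.1 FPKM with the Ad-Con label, against 7.67, 7.40 and 7.38 with the Ad-PDK4 label (log2 fold change -0.42, limma adjusted p = 0.00114). The overexpressed gene was thus lower under its own label, and overexpression was not seen in this table. Whether the values count RNA made from the vector is not given in the sources used here, and these values alone cannot tell apart uncounted vector RNA and exchanged labels. For this reason, "under Ad-Con" and "under Ad-PDK4" below mean only that the libraries carried that label. Of the smooth muscle markers, Acta2 was at 78.0 and 36.2 FPKM and Smtn at 8.32 and 8.44, whereas Myh11 had at most 10 reads, Myocd at most 5 and Tagln at most 20 in any library, so several defining markers of contractile smooth muscle were near 0. In such bulk libraries, fewer cells of a type and less RNA per cell cannot be told apart.

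All 8 members were higher in the libraries labelled Ad-PDK4. Their summed level went from 22.3, 23.1 and 25.1 FPKM to 271, 280 and 290 FPKM, a ratio of the means of 11.9. All 8 passed the filter on low values (a mean of at least 0.5 FPKM over the 6 libraries) and all 8 passed the test at an adjusted p below 0.05, where 21.8% of the 13423 genes tested were higher. With a rise of at least 2-fold also required, 3.95% of all genes tested passed, and all 8 members did, Oas1c only just. In none of the 8 did the groups overlap, and 27.8% of all genes tested were higher without overlap. The median log2 fold change was 4.02 over the members and -0.003 over all genes tested. Fold changes were taken between means of log2(FPKM + 0.1) and carry a 95% interval from limma. The added 0.1 makes them smaller than the true ones for genes with low FPKM.

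**Figure D1:**
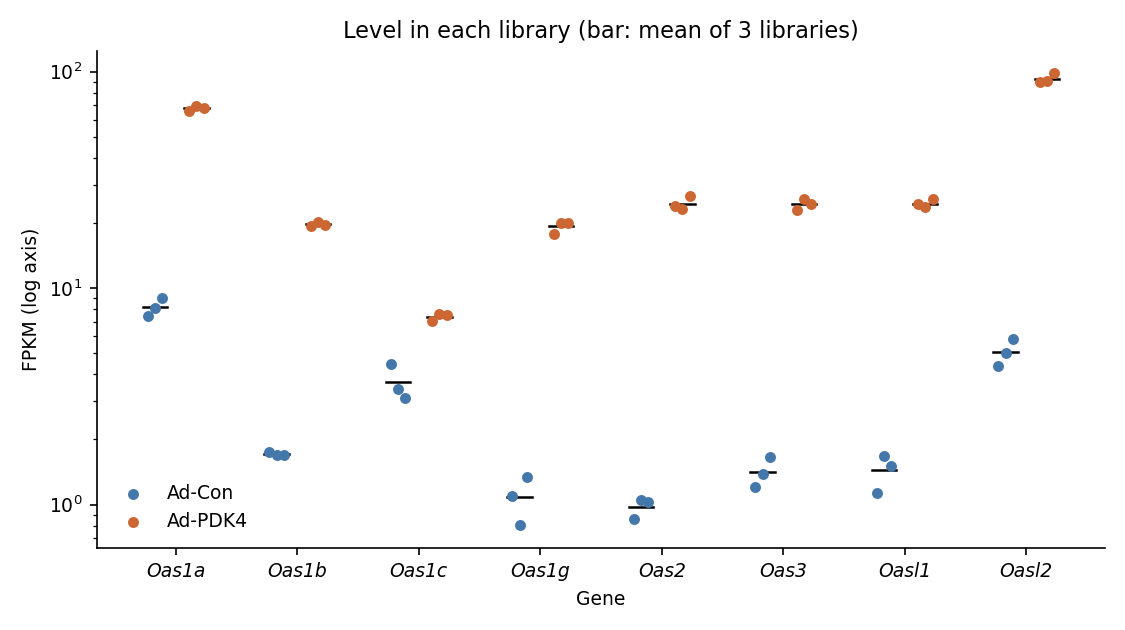
FPKM (log axis) of the 8 oligoadenylate synthetase genes in each of the 3 libraries labelled Ad-Con and the 3 labelled Ad-PDK4. Points are libraries and bars the mean. The groups are apart for all 8 genes, least for Oas1c (3.68 and 7.37 FPKM on average).

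Oas1a encodes an active synthetase of the short form. Its level was 7.45, 8.07 and 8.95 FPKM under Ad-Con, from 286, 267 and 306 reads. Under Ad-PDK4 it was 66.0, 69.1 and 67.6 FPKM, from 2265, 2281 and 2813 reads. All 3 of the latter were far above all 3 of the former. The gene already had the highest FPKM of the family under Ad-Con. The means were 8.16 ± 0.754 and 67.6 ± 1.56 FPKM (SD, n = 3), a log2 fold change of 3.04 (95% interval 2.87 to 3.20, limma adjusted p = 9.61e-08).

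Oas1g, the neighbour of Oas1a, also encodes an active short synthetase. It had 1.09, 0.803 and 1.34 FPKM under Ad-Con, from as few as 33 reads. Under the Ad-PDK4 label it had 17.8, 19.9 and 20.1 FPKM, from 758, 817 and 1037 reads. The groups were again apart, with the widest relative spread of the family under Ad-Con for the gene with the fewest reads. On the log2 scale it rose by 4.06 (95% interval 3.69 to 4.44, limma adjusted p = 1.49e-06). The coding sequences of Oas1a and Oas1g were 96.7% identical, and 84.7% of the Oas1a transcript and 80.1% of the Oas1g transcript lay in 50-base stretches also found in the other gene. How the counting split reads between them is uncertain, and so are their separate levels.

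Oas1b is known in the mouse as the flavivirus resistance gene, with a premature stop in many laboratory strains. Whether the transcripts counted here carried that stop was not examined. The gene was counted in all libraries. Oas1b had the most even values, 1.75, 1.69 and 1.69 FPKM under Ad-Con and 19.4, 20.2 and 19.6 under Ad-PDK4. The read counts behind them were 71, 59 and 61, and then 705, 704 and 864. This was a log2 fold change of 3.46 (95% interval 3.31 to 3.60, limma adjusted p = 3.36e-08). Only 8.7% of its transcript was shared with other genes in 50-base stretches.

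Oas1c rose least. Its level was 4.47, 3.43 and 3.12 FPKM under Ad-Con, from 219, 145 and 136 reads, and 7.04, 7.60 and 7.47 FPKM under Ad-PDK4, from 308, 320 and 397 reads. No library of one group reached the other, although the gap between 4.47 and 7.04 FPKM was the narrowest of the family in relative terms. The log2 fold change was 1.0 (95% interval 0.71 to 1.29, limma adjusted p = 0.000545), on the edge of the 2-fold limit. It fell under that limit without Ad-Con replicate 2 (0.96) or 3 (0.89), and without Ad-PDK4 replicate 2 (0.98) or 3 (0.99). Of its transcript 33.1% was shared with other genes, mainly Oas1e (19.3%) and Oas1d (13.7%), and its gene body overlaps the antisense gene Gm43069 over 5430 bases. Gm43069 had 0 reads under Ad-Con, then 1, 2 and 1 under Ad-PDK4, and whether the counting used strand was not given in the sources used here.

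Oas2 encodes a synthetase of middle length and had the largest log2 fold change of the 8. It had 0.861, 1.05 and 1.03 FPKM under Ad-Con, from 78, 82 and 83 reads. Under the Ad-PDK4 label it had 23.9, 23.2 and 26.6 FPKM, from 1933, 1808 and 2619 reads. It went from the lowest mean FPKM of the family, 0.98 ± 0.103, to 24.6 ± 1.82 FPKM (SD, n = 3). The log2 fold change was 4.52 (95% interval 4.29 to 4.74, limma adjusted p = 7.61e-08), and 34 genes of the 13423 had a larger one.

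Oas3, the longest of the family, is known to make 2-5A in human cells. Its level was 1.2, 1.39 and 1.66 FPKM under Ad-Con and 22.9, 25.9 and 24.4 FPKM under Ad-PDK4. The reads were 173, 172 and 213 in the former and 2941, 3208 and 3808 in the latter. Its log2 fold change was 4.02 (95% interval 3.76 to 4.29, limma adjusted p = 1.95e-07), and 4.0% of its transcript was shared with other genes.

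Oasl1 has no synthetase activity and is known to hold back the translation of Irf7 mRNA in mouse cells. It had 1.13, 1.68 and 1.5 FPKM under Ad-Con, from 60, 77 and 71 reads, and 24.4, 23.6 and 25.7 FPKM under Ad-PDK4, from 1160, 1077 and 1480 reads. The groups did not come near each other. The log2 fold change was 4.02 (95% interval 3.72 to 4.32, limma adjusted p = 4.13e-07).

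Oasl2 is the active enzyme among the ubiquitin-like members. Its level was 4.38, 5.03 and 5.81 FPKM under Ad-Con, from 568, 563 and 671 reads. It reached 89.7, 90.6 and 98.2 FPKM under Ad-PDK4, from 10410, 10107 and 13820 reads, the highest of the family. Oasl2 thus had a log2 fold change of 4.18 (95% interval 3.95 to 4.40, limma adjusted p = 9.61e-08). No 50-base stretch of Oas2, Oasl1 or Oasl2 was shared with another gene. Oasl1 and Oas2 overlap the genes Gm13822 (38 bases) and Gm43068 (1273 bases) on the opposite strand, which had at most 7 reads in any library.

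FPKM is scaled by the deposited gene length, so the orders and shares below depend on that length. It was 6374 bases for Oasl2 and 7069 for Oas3, against longest GENCODE transcripts of 3123 and 4720 bases. For Oas1a both were 1885 bases. Under Ad-Con, Oasl2 had 1802 reads in all and Oas1a 859. Divided by these transcript lengths instead, such reads would place Oasl2 above Oas1a under both labels. Under the Ad-Con label the order was Oas1a, Oasl2, Oas1c, Oas1b, Oasl1, Oas3, Oas1g and Oas2. The ranges over libraries overlapped between Oasl2 and Oas1c and from Oasl1 onwards. Of these neighbours Oas3 was above Oas1g in all 3 libraries, whereas the others changed order between libraries and did not differ beyond their spread. Under the Ad-PDK4 label the order was Oasl2, Oas1a, Oasl1, Oas2, Oas3, Oas1b, Oas1g and Oas1c, and ranges overlapped between Oasl1 and Oas2, Oas2 and Oas3, and Oas1b and Oas1g. By these FPKM, but not by the transcript lengths, Oasl2 and Oas1a changed places at the top. Their FPKM did not overlap in either group. Oas1c went from the third place to the last. As a share of the summed FPKM, Oas1a went from 34.7% to 24.1%, Oasl2 from 21.6% to 33.1% and Oas1c from 15.6% to 2.63%. Each of the other 5 held 4.16% to 7.26% under Ad-Con and 6.87% to 8.77% under Ad-PDK4.

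**Figure D2:**
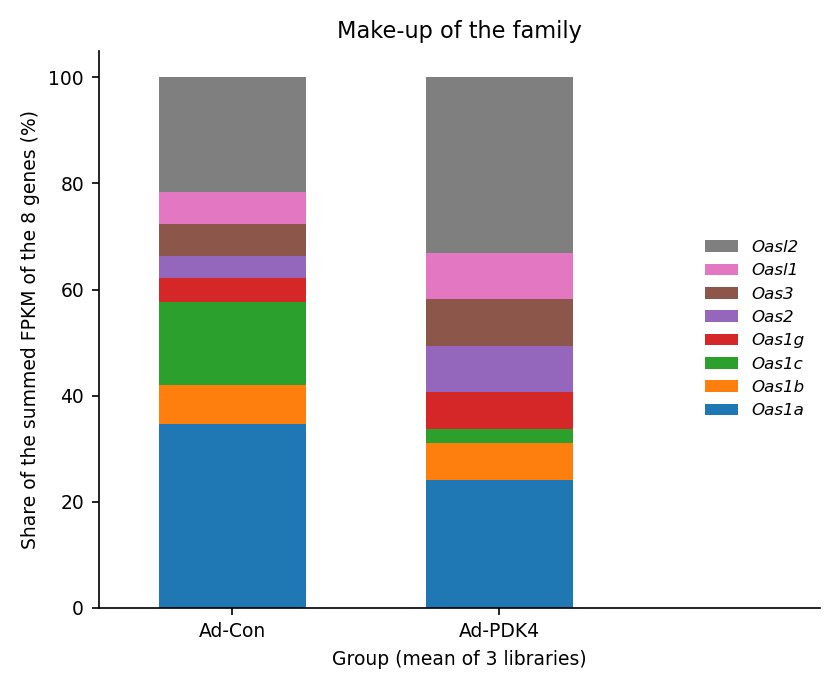
Share of the summed FPKM of the 8 genes (%, from 0) taken by each gene in the mean of the 3 libraries labelled Ad-Con and of the 3 labelled Ad-PDK4. Oas1a takes the largest part under Ad-Con (34.7%) and Oasl2 under Ad-PDK4 (33.1%), and the part of Oas1c shrinks from 15.6% to 2.63%. The shares depend on the gene lengths used for FPKM. With the longest transcript lengths Oasl2 would stand above Oas1a under both labels.

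Neighbouring members were set against each other within each library, which removes any scaling between libraries. The pairs were Oasl2 and Oasl1, Oas3 and Oas2, Oas1b and Oas1c, and Oas1a and Oas1g. They were chosen after the values were seen, so the ratios and their p-values are a description. The level of Oas1b over that of Oas1c was 0.391, 0.491 and 0.542 under Ad-Con and 2.76, 2.66 and 2.63 under Ad-PDK4. The pair that starts back to back over the shared run of 16 letters thus stood in one order in every library under Ad-Con and in the other in every library under Ad-PDK4, and the ratio differed by 2.51 on the log2 scale. The level of Oas1a over that of Oas1g went the other way, from 6.83, 10.0 and 6.66 to 3.71, 3.47 and 3.37, with the uncertainty in splitting their reads given above. For Oas3 over Oas2 the ratio was 1.40, 1.32 and 1.62, and then 0.958, 1.12 and 0.916. Each of these 3 ratios had no overlap between groups and an exact two-sided permutation p of 0.1, the smallest that 3 libraries against 3 allow (0.133 after Benjamini-Hochberg adjustment over the 4 pairs). The ratio of Oasl2 to Oasl1 overlapped between groups, at 2.99 to 3.87 and 3.67 to 3.84 (exact permutation p = 1).

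The cluster also holds Oas1d, Oas1e, Oas1f and Oas1h, copies of Oas1 with few reads. Oas1h had 0 reads in all 3 libraries under Ad-Con, against 28, 10 and 36 under Ad-PDK4, a level at least 7.73-fold higher when 3 reads are taken for each library at 0. Oas1d had none under Ad-Con, then 1, 17 and 3 under Ad-PDK4, most of them in replicate 2. Oas1e went from 0 reads to 2, 6 and 4, and Oas1f had 1 read in all. These 4 were under the filter and were not tested, and a limit of 3 reads covers counting error only, since copies made by PCR are not independent molecules.

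**Figure D3:**
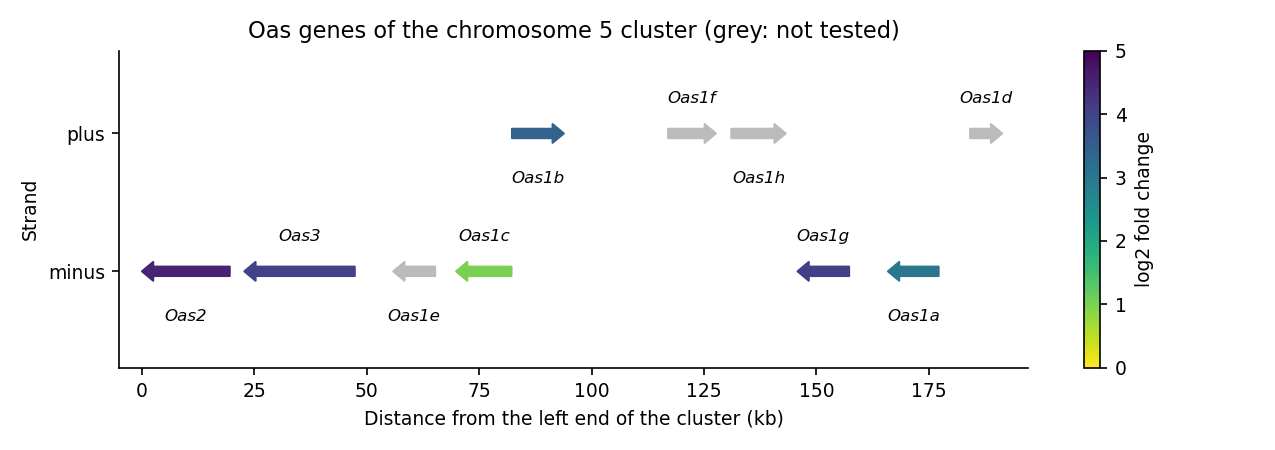
Map of the 10 Oas genes of the chromosome 5 cluster, by distance in kb from its left end and by strand, with arrows pointing in the direction of transcription. Colour gives the log2 fold change of the 6 tested genes, from 1.0 in Oas1c to 4.52 in Oas2, and the 4 grey genes were not tested.

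Few genes beside the family could be tested. Of 31 other genes within 100 kb of a member, including the 4 Oas1 copies above, 26 were under the filter. The 5 that were tested all lie beside the Oasl pair. 1500011B03Rik was higher by 0.75 on the log2 scale (limma adjusted p = 0.0056), 2610524H06Rik was lower (log2 fold change -0.30, limma adjusted p = 0.0433), and Ankrd13a, 2210016L21Rik and Sppl3 had log2 fold changes of 0.03, 0.05 and -0.14 and did not pass. Beside the Oas cluster Dtx1 had 2 to 6 reads per library, Rasal1 0 to 10 and Rph3a 0 or 1, too few to compare.

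Another 31 genes of interferon signalling and of the 2-5A pathway, listed by role, were read from the same test. Of the 31 genes 25 were tested and 17 were higher, 14 of them by at least 2-fold, where 21.8% and 3.95% of all genes tested were. A further 2 were lower, where 20.8% of all genes tested were, and 6 did not pass. Their median log2 fold change was 1.35. These genes were listed from general knowledge with results of these data known, so the counts are a description.

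The 6 interferon genes on the list, which encode ligands, had few or no reads. Other interferon genes were not looked up. Ifnb1 had 0 reads throughout Ad-Con, against 7, 5 and 5 under Ad-PDK4, and Ifna2, Ifna4, Ifng, Ifnl2 and Ifnl3 had 0 in all 6 libraries. A count of 0 allows up to 3 reads in a library. Among receptor genes, Ifnar2 rose from 9.33 ± 0.189 to 21.9 ± 0.463 FPKM (SD, n = 3, limma adjusted p = 1.45e-06) and Il10rb from 4.59 ± 0.116 to 7.83 ± 0.997 FPKM (limma adjusted p = 0.000601). Ifnar1, the partner of Ifnar2, was at 12.6 ± 0.537 and 13.0 ± 0.629 FPKM and did not pass. Ifnlr1, the receptor chain for interferon lambda, was at 1.37 and 1.03 FPKM and did not pass either (limma adjusted p = 0.0969).

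Stat2 and Irf9, which act at ISREs, also rose (limma adjusted p of at most 6.71e-07). Stat2 went from 8.38 to 52.1 FPKM (log2 fold change 2.62) and Irf9 from 9.88 to 29.7 FPKM (1.58). The receptor kinases Jak1 and Tyk2 had log2 fold changes of 0.10 and 0.20 and did not pass. Among the related factors Irf7, the amplifier of interferon transcription, rose from 5.69 ± 0.794 to 184 ± 11.6 FPKM (log2 fold change 5.00), Irf1 had a log2 fold change of 1.35, and Irf3, which acts through phosphorylation, was at 11.5 and 11.6 FPKM.

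The genes for enzymes that break 2-5A down changed in both directions. Pde12 rose by 0.45 on the log2 scale (limma adjusted p = 0.00304). Akap7 fell from 4.6 ± 0.157 to 3.20 ± 0.147 FPKM (log2 fold change -0.51, limma adjusted p = 0.00127), and Enpp1, which also cleaves other nucleotides, fell from 1.14 ± 0.0514 to 0.488 ± 0.131 FPKM (log2 fold change -1.10, limma adjusted p = 0.00613). Abce1, a factor that recycles ribosomes, rose from 14.4 ± 0.250 to 19.5 ± 2.22 FPKM (log2 fold change 0.43, limma adjusted p = 0.00399).

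Of the 8 other genes that sense, relay or edit double-stranded RNA, 7 rose (limma adjusted p of at most 4.45e-06). Eif2ak2, the kinase PKR that halts translation, had a log2 fold change of 1.51, Adar, an RNA editor, of 1.86 and Ddx58, the sensor RIG-I, of 1.82. Ifih1 (2.77), Dhx58 (3.92), Tlr3 (2.42) and Zbp1 (6.25) had larger log2 fold changes, and Zbp1, a sensor of Z-form nucleic acid, went from 0.710 ± 0.145 to 61.1 ± 4.70 FPKM. Mavs, the adaptor on the mitochondrial surface through which RIG-I signals, was at 18.3 and 19.5 FPKM and did not pass. Usp18 and Isg15, which act in feedback on the interferon receptor and as a protein tag, had log2 fold changes of 2.47 and 4.89.

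**Figure D4:**
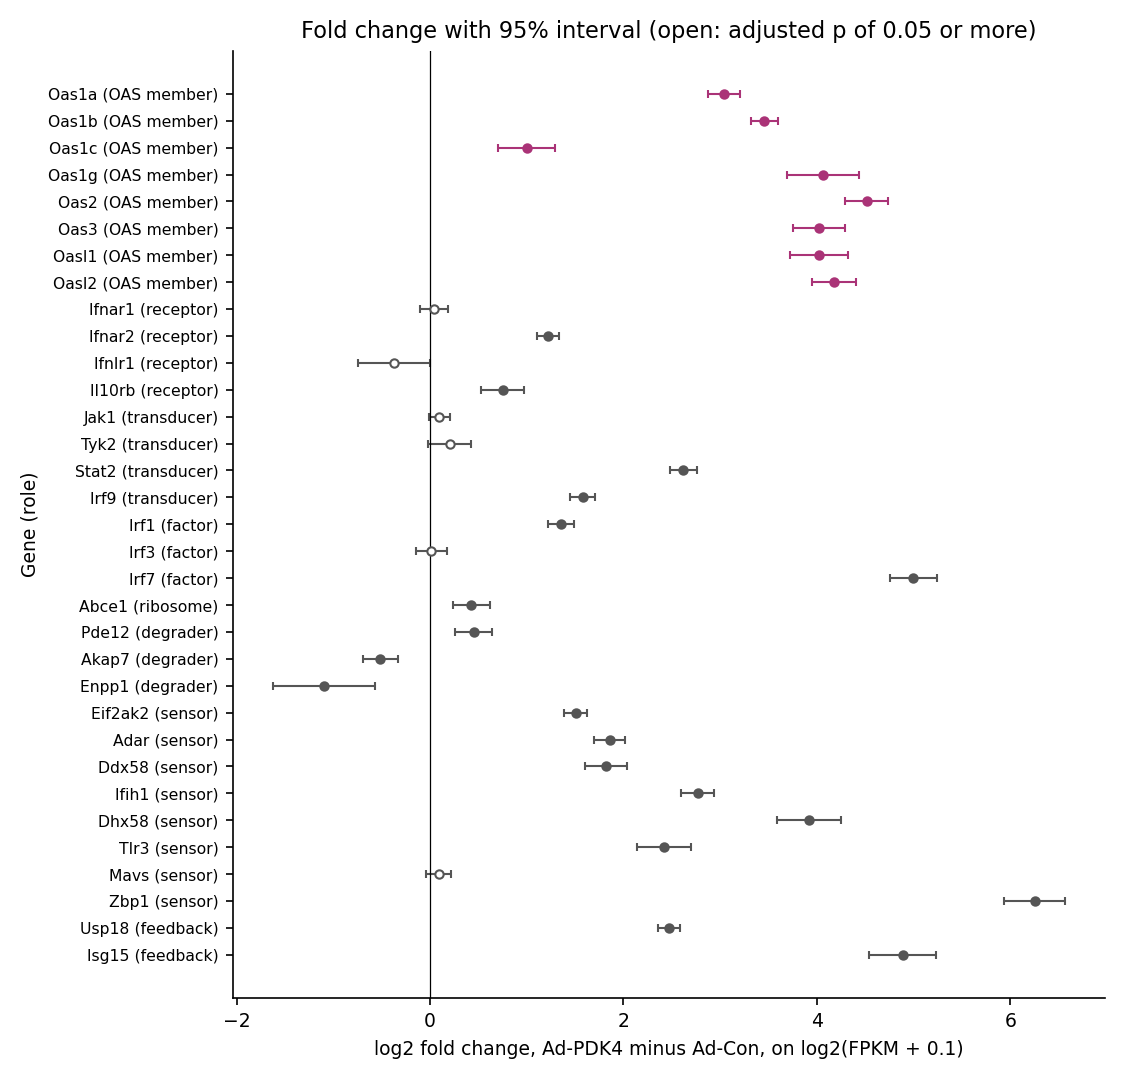
Log2 fold change (Ad-PDK4 minus Ad-Con, on log2(FPKM + 0.1)) with its 95% interval for the 8 members and 25 tested genes of the pathway, by role. Filled points passed at an adjusted p below 0.05. All 8 members lie at or above 1.0. Of the pathway genes Akap7 and Enpp1 were lower, and the open point of Ifnlr1 also lies below 0.

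By their profile over the 6 libraries, the tested genes most like the mean of the standardised members were Neurl3, Parp14, Wisp2, Fgf10 and Ly6e, with Pearson r of 0.9997 to 0.99998. The points fall into their 2 groups, so r mainly restates the difference between them, and 434 genes outside the family had r above 0.99. Among the members r was lowest for Oas1c (0.957) and highest for Oas1b (0.9998).

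Some markers of other cell types differed between the labels. Macrophage markers summed to 15.0 to 17.9 FPKM under Ad-Con and 5.91 to 7.44 under Ad-PDK4. Cd68 was lower (14.2 and 4.24 FPKM), whereas Lyz2 was at 1.51 and 1.98 FPKM and did not pass, and Csf1r was at 0.258 and 0.640 FPKM, under the filter, both higher under Ad-PDK4 without overlap. Of the 9, 5 (Ptprc, Tyrobp, C1qa, C1qb and Itgam) had 0 reads in all libraries. Fibroblast markers summed to 1119 to 1201 and 589 to 657 FPKM, most of it from Col1a1, which was lower (1055.5 and 434.8 FPKM). Lum was also lower and Dcn higher. Pdgfra was at 20.5 and 19.9 FPKM and did not pass. Pi16, under the filter, was at 0.205 and 0.023 FPKM, lower under Ad-PDK4 without overlap. The 5 endothelial markers summed to 0.617 to 0.798 and 0.885 to 1.18 FPKM, and Kdr, the only one over the filter, did not pass. Of the 4 T cell and plasmacytoid dendritic cell markers Cd3e, Cd3g and Siglech had 0 reads, and Bst2, itself known as an interferon-stimulated gene, went from 220 to 1786 FPKM. The 7 smooth muscle markers summed to 86.8 to 88.4 and 43.1 to 47.97 FPKM, with Acta2 lower. Cnn1, under the filter, was at 0.466 and 0.247 FPKM, also lower under Ad-PDK4 without overlap. The remaining smooth muscle markers overlapped between groups. The part of these marker differences in the rise of the synthetases was not tested.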

How the data were processed

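RNA-seq was performed on 6 libraries, 3 per group. Groups came from the treatment labels and replicate numbers from the titles. The authors deposited FPKM for each gene and library, with gene lengths and no pooling. Per the labels, their processing notes name CASAVA 1.8, fastp, HISAT2 2.0.5, featureCounts 1.5.0-p3 and DESeq2 1.20.0. The notes name GRCm39, but 98.2% of the 54495 identifiers found in GENCODE M21 had its GRCm38 coordinates, as did all 8 members, so GRCm38 is used. The labels name a SMARTER kit and the study's methods a NEBNext kit. The study's figure legends call the replicates biological, and nothing else states how the cultures were separated. The limma p-values therefore weigh the group difference only against the spread between these libraries, moderated over all genes tested. Within groups, libraries differed by more than sampling noise (chi-square per degree of freedom 4.17 to 11.7).

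The 2 groups were compared by limma 3.58.1 (R 4.3.3) on log2(FPKM + 0.1) (empirical Bayes with trend and robust, no covariates), with Benjamini-Hochberg adjustment over the 13423 genes with a mean of at least 0.5 FPKM, and called at an adjusted p below 0.05, and separately with a fold change of at least 2. Whole reads, recovered from FPKM and gene length, gave depth and floors (3 reads). The test was checked on simulated data. Alternatives were pseudocounts of 1 and 0.01, filters, scalings, plain moderation, limma-voom on recovered reads, the replicate number as a block and leaving out each library. Shared stretches were 50-base words of the longest GENCODE transcript. Promoters came from RefSeq. Protein sequences were not used here, and some genes of the pathway are not reported here.

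Named genes were the 8 members, Pdk4, the pathway list, other Oas symbols, tested genes within 100 kb, the 5 genes most like the members and marker lists for cell types. Dtx1, Rasal1, Rph3a, Apol9a, Apol9b and the overlapping genes were chosen after their values were seen, as were the ratios of neighbouring pairs. The members and lists were chosen with earlier results of these data known.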

Additional observations from a re-analysis of the deposited data

How the results depend on the processing

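All 8 members stayed higher at an adjusted p below 0.05 in each of the 16 alternatives run, and Pdk4 stayed lower (-0.47 to -0.38). A pseudocount of 1 gave the lowest log2 fold change of every member, from 0.85 for Oas1c to 3.96 for Oasl2, and with it, under quantile normalization (Oas1c at 0.96) and when any 1 of 4 libraries was left out, 7 members passed the 2-fold limit. With the replicate block 8 members, 2759 higher and 2626 lower genes and 20 pathway genes were called. Same-numbered libraries did not deviate together (correlations -0.046 to -0.00129), so the numbers were not taken as pairs. Depth limits the ligands and the 4 untested Oas1 copies most.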
